A study of Mus musculus with 6 samples.

Results

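The subject here is a group of 10 genes that encode subunits of the BAF chromatin remodelling complex: Arid1a, Arid1b, Arid2, Smarca2, Smarca4, Smarcb1, Smarcc1, Smarcc2, Smarcd1 and Pbrm1. They were chosen by gene symbol, and each of the 10 names had a single row among the 14499 genes of the deposited table. RNA-seq of total RNA from liver covered 6 mouse libraries. The group WT_DDC held 3 libraries from wild type livers, and the group Arid1a_KO_DDC held 3 from livers in which Arid1a was knocked out in hepatocytes only. Every mouse was of the mixed background C57Bl/6; 129Sv and 10 weeks old, and every liver, control livers included, had been injured with DDC for 2 weeks. DDC is a porphyrin-forming compound that damages hepatocytes and bile ducts. The sources used here name neither the Cre driver nor the deleted part of Arid1a, and do not tie libraries to single mice, so the p-values below rest on the spread among libraries, which may be technical. There were no uninjured livers among the samples, so the levels are those of injured liver only.

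BAF complexes use the energy of ATP to slide or evict nucleosomes and so open chromatin at enhancers and promoters. Each complex is built around a single ATPase, either SMARCA4 (BRG1) or SMARCA2 (BRM), on a core that holds SMARCB1, SMARCD and a pair of SMARCC scaffold proteins. The canonical form carries ARID1A or its paralog ARID1B, never both, while the PBAF form carries ARID2 and the bromodomain protein PBRM1 instead. In the liver, ARID1A is known for its part in cancer and in regeneration after damage.

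All 10 subunits were expressed in every library, none was listed at 0, and none passed the test between the genotypes across all genes. Arid1a transcripts were at a mean of 6.44 ± 1.25 FPKM in WT_DDC and of 5.14 ± 1.41 FPKM in Arid1a_KO_DDC (SD, n = 3 libraries each), and the groups overlapped. Arid1b and Pbrm1 were lower in all 3 knockout libraries than in any wild type library, by small amounts. FPKM is the number of fragments scaled to transcript length and to the mapped total of the library, so that levels can be set side by side between genes. Genotypes were compared with limma on log2(FPKM + 1), with p-values adjusted over 11839 genes and a threshold of 0.05.

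The 250 bases before the RefSeq start of 2 members are given here, because Arid1a is the targeted gene and Pbrm1 is one of the members whose groups did not overlap. Both are from GRCm38.p6, written 5′ to 3′ on the strand of the gene, with CG dinucleotides in capitals. The Arid1a stretch is chr4:133756770-133757019 on the minus strand, and the Pbrm1 stretch is chr14:31018888-31019137 on the plus strand. The Arid1b window overlapped an annotated exon of the gene and is not shown.
Arid1a: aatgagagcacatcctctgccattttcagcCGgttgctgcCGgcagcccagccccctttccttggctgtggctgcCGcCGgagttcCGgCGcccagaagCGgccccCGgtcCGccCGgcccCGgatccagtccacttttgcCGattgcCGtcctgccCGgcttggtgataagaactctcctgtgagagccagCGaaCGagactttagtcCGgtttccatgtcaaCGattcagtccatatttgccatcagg
Pbrm1: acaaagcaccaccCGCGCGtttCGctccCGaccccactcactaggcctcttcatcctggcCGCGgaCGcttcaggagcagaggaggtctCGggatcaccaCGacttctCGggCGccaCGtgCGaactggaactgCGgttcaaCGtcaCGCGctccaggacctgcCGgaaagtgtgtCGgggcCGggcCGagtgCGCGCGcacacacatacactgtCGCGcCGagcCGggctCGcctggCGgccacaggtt

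The Arid1a stretch held 18 CG dinucleotides and the Pbrm1 stretch 31, while the 250 bases before the other RefSeq start of Arid1a held 33. RefSeq promoter windows, which run from 250 bases before to 50 bases after a start, were found for 9 of the 10 members, with 2 windows for Arid1a, of which the stretch shown is from the one farther upstream, and none for Arid2. The 10 windows had a GC content of 60.7% to 81%, against a median of 52.7% over all 32851 windows of the same length. Their ratio of observed to expected CG dinucleotides was 0.787 to 1.05, against a median of 0.384. CG-rich starts are the usual form of broadly expressed genes. The core of the motif bound by TEAD factors, GGAATG or CATTCC on the other strand, was found in 0 of these 10 windows and in 14.7% of all windows.

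The members spanned a wide range of transcript levels, and Smarca2 headed the order in each of the 6 libraries. Smarca2 had a mean of 40.4 FPKM over the 6 libraries and lay at the 84.4th to 89.6th percentile of all genes in the table. Smarcb1 followed at 17.1 FPKM, Smarcc2 at 16.9, Smarca4 at 11.6, Arid1a at 5.79 and Smarcc1 at 5.52. Smarcd1 had 3.91 FPKM, Arid2 2.92, Pbrm1 2.76 and Arid1b 2.49. Arid1b was at the 32.1st to 40.8th percentile of the table, and was the lowest member in every library but WT_DDC replicate 1.

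Not every step in that order was larger than the spread between libraries. Smarca2 exceeded Smarcb1, Smarcc2 exceeded Smarca4, Smarca4 exceeded Arid1a and Smarcd1 exceeded Arid2 with ranges that did not touch. Smarcb1 was above Smarcc2 in 4 of 6 libraries, Arid1a above Smarcc1 in 4, and Arid2 above Pbrm1 in 4. Pbrm1 was above Arid1b in 5 of 6 libraries. Smarcc1 was above Smarcd1 within each of the 6 libraries, although their ranges overlapped. So the ATPase Smarca2 stood apart at the top, and the scaffold and core genes Smarcc2 and Smarcb1 shared the next place. Among the members, Arid2 and Pbrm1 shared the low end with Arid1b.

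**Figure D1:**
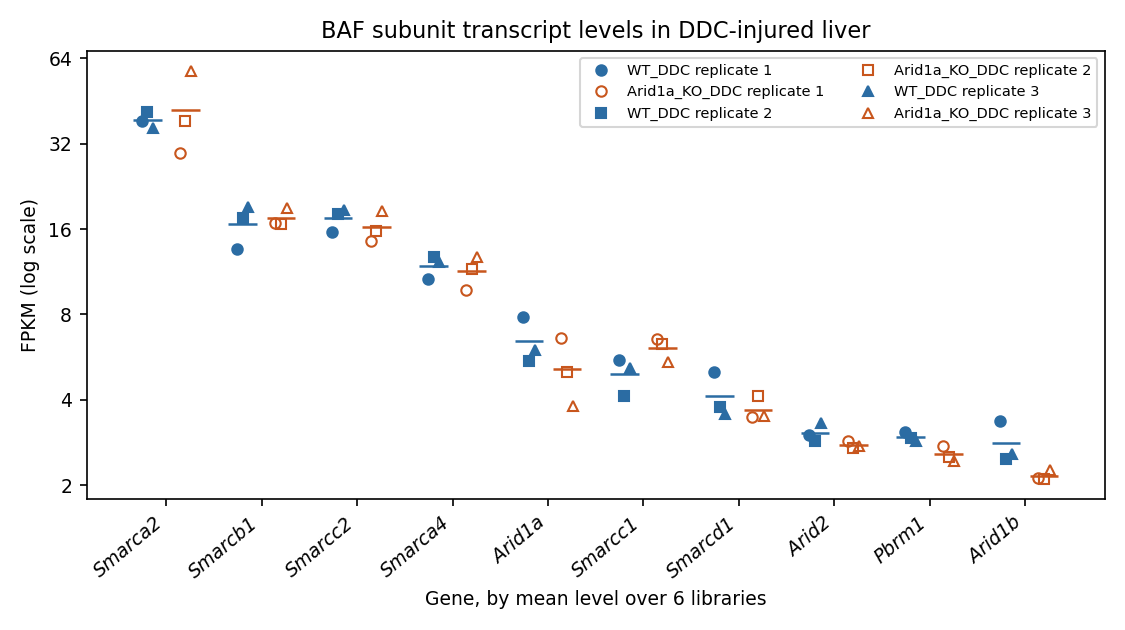
FPKM of the 10 subunits (log scale) in each of the 6 libraries, ordered by mean level, with blue filled points for WT_DDC, orange open points for Arid1a_KO_DDC, a point shape per replicate number and a line at each group mean. Smarca2 is highest in every library, from 29.6 to 57.7 FPKM, and the blue and orange points separate only for Arid1b and Pbrm1.

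Among the subunits with an ARID DNA-binding domain, the targeted gene Arid1a (ENSMUSG00000007880, protein coding, chromosome 4, 133679008 to 133756769, minus strand, GRCm38) came first. It was at 7.85, 5.48 and 5.98 FPKM in WT_DDC replicates 1, 2 and 3, and at 6.61, 5.01 and 3.81 FPKM in Arid1a_KO_DDC replicates 1, 2 and 3. The highest value was in WT_DDC replicate 1 and the lowest in Arid1a_KO_DDC replicate 3, and knockout replicate 1 lay above 2 of the 3 wild type libraries. The log2 difference, knockout minus wild type, was -0.29 (SE 0.22, 95% interval -0.80 to 0.22, limma adjusted p = 0.678). The exact permutation test of 3 against 3 gave p = 0.4, where the smallest p it allows is 0.1. The gene-level FPKM of whole liver includes every exon of Arid1a and every cell type that transcribes it, so it is no check of the genotype labels. In such bulk samples, fewer cells of a type and less RNA per cell cannot be told apart.

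Arid1b (ENSMUSG00000069729, chromosome 17, 4994332 to 5347656) encodes the paralog that takes the place of ARID1A in the canonical complex. It was at 3.36, 2.48 and 2.59 FPKM in WT_DDC, in the order of the replicates, and at 2.11, 2.11 and 2.26 FPKM in Arid1a_KO_DDC. Every knockout library lay below every wild type library, and the knockout values were close together while WT_DDC replicate 1 stood above the rest. The group means were 2.81 ± 0.483 and 2.16 ± 0.0833 FPKM (SD, n = 3 libraries each), a log2 difference of -0.26 (SE 0.15, 95% interval -0.62 to 0.10, limma adjusted p = 0.587). Without WT_DDC replicate 1 the difference was -0.16.

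Arid2 and Pbrm1 mark the PBAF form, in which ARID2 takes the ARID position and PBRM1 reads acetylated histones through its bromodomains. Arid2 (chromosome 15, 96287518 to 96404992) was at 2.997, 2.86 and 3.32 FPKM in the 3 WT_DDC libraries and at 2.86, 2.72 and 2.75 FPKM in Arid1a_KO_DDC. The groups overlapped only where WT_DDC replicate 2 and Arid1a_KO_DDC replicate 1 met at 2.86 FPKM, with a log2 difference of -0.10 (SE 0.13, limma adjusted p = 0.817). Pbrm1 (chromosome 14, 31019138 to 31121592) was at 3.07, 2.93 and 2.86 FPKM in the 3 WT_DDC libraries and at 2.75, 2.52 and 2.44 FPKM in Arid1a_KO_DDC. The 3 knockout values for Pbrm1 all lay below the lowest wild type value. Pbrm1 differed by -0.15 on the log2 scale (SE 0.13, 95% interval -0.46 to 0.16, limma adjusted p = 0.721).

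Thus 2 of the 10 members, Arid1b and Pbrm1, had knockout values wholly below wild type. For each, the exact permutation p of 0.1 was the smallest that 3 against 3 libraries allow. Over all 11839 genes tested 9.56% had groups apart in that direction, and 7.09% had groups apart with the knockout higher, which was the case for 0 members. Without Arid1a_KO_DDC replicate 1, a check added after seeing the data, Arid1a and Arid2 had groups apart as well. That made 4 of 10 members, against 18.6% of all genes with the knockout lower in the same 5 libraries. With any other library left out, 2 or 3 members had groups apart, in either direction. Arid1b and Pbrm1 were always among them, and any further member was Arid2, Smarcd1 or, with the knockout higher, Smarcc1. The share of all genes was not computed for these, so these counts cannot be read as a result about the members.

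The ATPases showed no difference that held beyond the spread of the libraries. Smarca2 (chromosome 19, 26605050 to 26778322) was at 38.5, 41.2 and 36.5 FPKM in the 3 WT_DDC libraries and at 29.6, 38.6 and 57.7 FPKM in Arid1a_KO_DDC. The knockout group held both the lowest and the highest Smarca2 value, with an SD of 14.3 against 2.39 FPKM in wild type. The Smarca2 difference was 0.06 on the log2 scale (SE 0.24, limma adjusted p = 0.945), but -0.19 without Arid1a_KO_DDC replicate 3. Smarca4 (chromosome 9, 21616169 to 21704230) was at 10.6, 12.8 and 12.3 FPKM in the 3 WT_DDC libraries and at 9.73, 11.6 and 12.8 FPKM in Arid1a_KO_DDC. Replicate 1 was the lowest of each group, and the genotypes differed by -0.06 log2 units (SE 0.15, limma adjusted p = 0.908). Without Arid1a_KO_DDC replicate 1 the Smarca4 difference was 0.03.

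SMARCC1 (BAF155) and SMARCC2 (BAF170) are the scaffold proteins on which the core assembles. Smarcc1 (chromosome 9, 110117708 to 110240178) was at 5.55, 4.12 and 5.17 FPKM in the 3 WT_DDC libraries and at 6.54, 6.32 and 5.42 FPKM in Arid1a_KO_DDC. It had the most positive difference of the 10 members at 0.26 (SE 0.16, 95% interval -0.11 to 0.63, limma adjusted p = 0.598), and the groups overlapped only because knockout replicate 3 lay below WT_DDC replicate 1. Smarcc2 (chromosome 10, 128459248 to 128490482) was at 15.7, 18.1 and 18.7 FPKM in the 3 WT_DDC libraries and at 14.5, 15.7 and 18.5 FPKM in Arid1a_KO_DDC, a log2 difference of -0.10 (SE 0.15, limma adjusted p = 0.835). The Smarcc2 groups overlapped, with replicate 1 the lowest of each.

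The remaining core subunits differed by less than the spread between libraries. Smarcb1 (chromosome 10, 75896769 to 75921617), the gene of the SNF5 subunit that contacts the nucleosome, was at 13.6, 17.4 and 19.1 FPKM in the 3 WT_DDC libraries and at 16.9, 16.7 and 19.0 FPKM in Arid1a_KO_DDC. Its difference was 0.07 (SE 0.16, limma adjusted p = 0.902), and it was -0.06 without WT_DDC replicate 1. Smarcd1 (chromosome 15, 99702129 to 99713991), the gene of BAF60A, which links the complex to transcription factors, was at 5.01, 3.79 and 3.55 FPKM in the 3 WT_DDC libraries and at 3.47, 4.11 and 3.50 FPKM in Arid1a_KO_DDC. WT_DDC replicate 1 was the highest of the 6, with the others between 3.47 and 4.11 FPKM. The Smarcd1 difference was -0.12 (SE 0.16, limma adjusted p = 0.832), and 0.01 without WT_DDC replicate 1.

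By limma with Benjamini-Hochberg adjustment, 0 of the 10 members passed the threshold, with adjusted p-values of 0.587 to 0.945, and 0 had an unadjusted p under 0.05. Among all genes tested 0.49% passed the adjusted threshold and 11.1% had an unadjusted p under 0.05. The differences were negative for 7 members and positive for 3, with a median of -0.10, beside a median of 0.0034 over all genes, of which 49.4% were negative. The 95% intervals of all 10 members lay between -0.80 and 0.63, so none reached a change of 1 log2 unit in either direction. These are intervals on the log2(FPKM + 1) scale, which understates the change of the members with low FPKM.

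**Figure D2:**
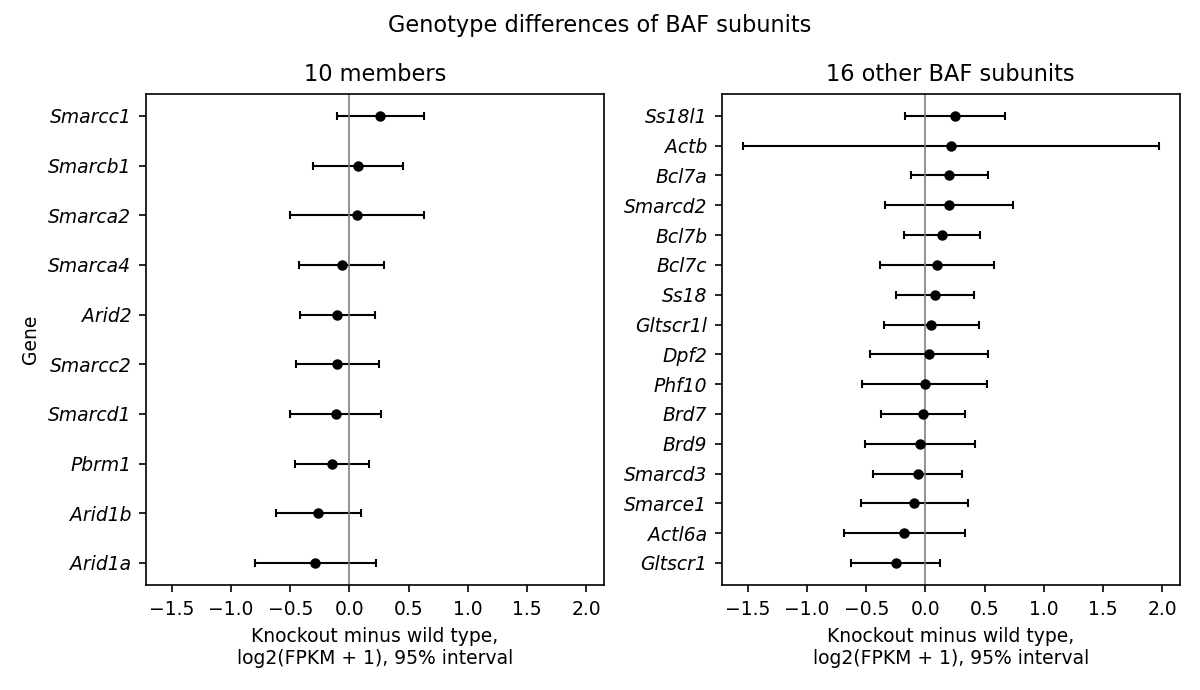
Knockout minus wild type on the log2(FPKM + 1) scale (x axis) for the 10 members and for 16 other BAF subunits, each point with its 95% interval from limma. All intervals include 0, and the members run from -0.29 for Arid1a to 0.26 for Smarcc1.

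The balance between alternative subunits was compared within each library, where a ratio does not depend on how libraries were scaled. Arid1a exceeded Arid1b in all 6 libraries, by 2.33, 2.21 and 2.31 times in wild type and by 3.13, 2.37 and 1.69 times in knockout livers. The wild type ratios were close together, while the knockout ratios lay on both sides of them. Smarca4 stood at 0.276, 0.31 and 0.336 of Smarca2 in wild type and at 0.328, 0.30 and 0.222 in knockout libraries. Smarcc1 stood at 0.354, 0.228 and 0.276 of Smarcc2 in wild type and at 0.451, 0.402 and 0.293 in knockout libraries. Arid1a stood at 2.62, 1.92 and 1.80 times Arid2 in wild type and at 2.31, 1.85 and 1.39 times in knockout libraries. In each of these 4 ratios the genotypes overlapped.

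On the log2 scale the knockout minus wild type differences were 0.02 for Arid1a/Arid1b, -0.13 for Smarca4/Smarca2, 0.42 for Smarcc1/Smarcc2 and -0.21 for Arid1a/Arid2. The exact two-sided permutation tests gave p = 0.8, 0.6, 0.2 and 0.5, and an adjusted p of 0.8 for all 4. As a share of the summed FPKM of Arid1a, Arid1b and Arid2, Arid1a made up 52.1% ± 2.74 in wild type and 50.4% ± 6.94 in knockout livers (SD, n = 3 libraries each). The lowest share was 43.2%, in Arid1a_KO_DDC replicate 3. Smarca2 made up 74.8% to 81.9% of the summed ATPase transcripts over the 6 libraries.

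Library numbers in the sample descriptions fell into a pair of sets, L0566 and L0567, which are replicate 1 of both genotypes, and L0602 to L0605, which are replicates 2 and 3. The labels do not say what differs between the sets. Arid1a was at 7.85 and 6.61 FPKM in the first set and between 3.81 and 5.98 FPKM in the second, without overlap. Smarca4 and Smarcc2 were the other members with sets apart, and both were higher in the second set. Over all genes tested 28.4% had sets apart, 17.2% with the second set higher and 11.3% with it lower, so 3 of 10 members is near the background. In a limma fit with genotype and set, the second set minus the first was -0.45 for Arid1a (SE 0.14, unadjusted p = 0.0221, adjusted p = 0.174), 0.26 for Smarca4 (adjusted p = 0.266) and 0.22 for Smarcc2 (adjusted p = 0.348). By limma 0 of 10 members passed for the set, against 0.127% of all genes, and Arid1a was the 1 member with an unadjusted p under 0.05, against 21.3% of all genes.

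Within the sets, the ARID subunits and Pbrm1 were all lower in knockout livers. In the first set, with 1 library per genotype, the wild type library had 7.85 FPKM of Arid1a and the knockout library 6.61, and in the second set both knockout values, 5.01 and 3.81 FPKM, lay below both wild type values, 5.48 and 5.98 FPKM. The same held for Arid1b, Arid2 and Pbrm1, which made 4 of 10 members, against 16.8% of all genes. Smarcc1 was the 1 member that was higher in knockout within both sets, against 15.3% of all genes. With the set as a term in limma, the Arid1a difference had an SE of 0.14 in place of 0.22 and an adjusted p of 0.352, and in L0602 to L0605 alone the difference was -0.32 (SE 0.17, adjusted p = 0.396). The set changed no call among the members.

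**Figure D3:**
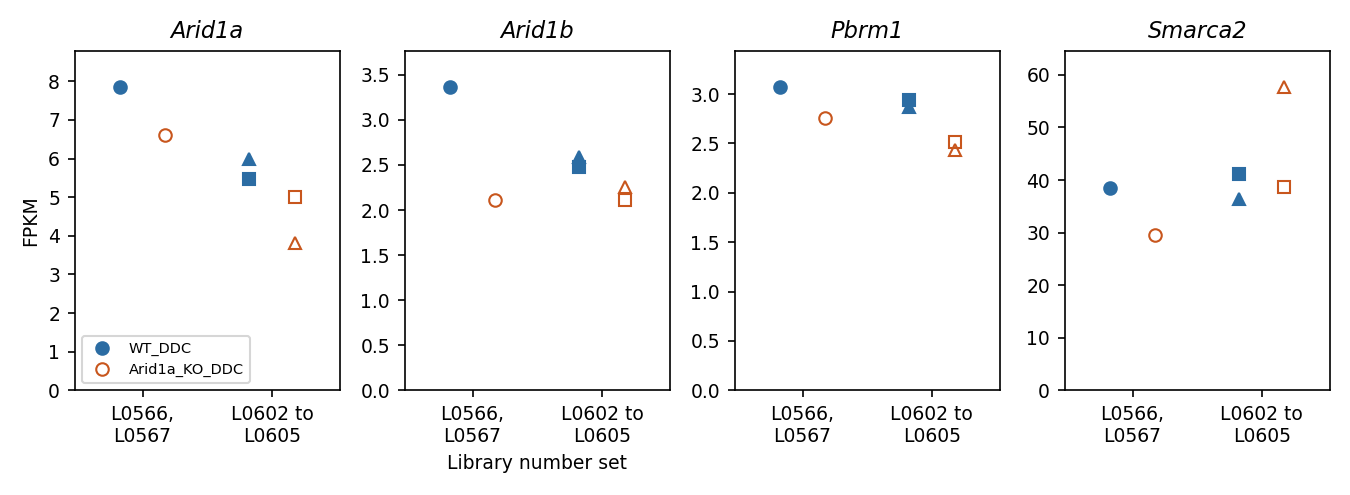
FPKM (y axis, from 0) of Arid1a, Arid1b, Pbrm1 and Smarca2 by library number set (x axis), with blue filled points for WT_DDC and orange open points for Arid1a_KO_DDC, 1 point per library. Within each set the knockout points of Arid1a, Arid1b and Pbrm1 lie below the wild type points. In the set L0602 to L0605, 1 knockout point of Smarca2 lies between the wild type points and 1 above them.

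The difference between the knockout effects in the sets was fitted as an interaction term. With 1 library per genotype in the first set, its spread comes from L0602 to L0605 alone, and the lone libraries are assumed to vary like those, so a lack of calls says nothing about whether the effects were alike. By limma 0 members passed, with adjusted p-values from 0.628 upwards, and 0 had an unadjusted p under 0.05. Over all genes tested, 0% passed the adjusted threshold and 9.05% had an unadjusted p under 0.05. The largest interaction terms were 0.64 for Smarca2 (SE 0.39) and 0.47 for Smarcd1 (SE 0.26), each smaller than 2 of its standard errors.

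On the log2(FPKM + 1) scale, the members other than Arid1a and Smarca2 varied less between the 6 libraries than the median gene tested. That scale understates the spread of the members with low FPKM. The SD over the 6 libraries on the log2(FPKM + 1) scale was 0.30 for Arid1a and 0.31 for Smarca2, and these 2 were above the median of all genes tested, 0.26. It was 0.08 for Arid2, 0.09 for Pbrm1 and between 0.15 and 0.20 for the other 6. The highest library was 2.06 times the lowest for Arid1a and 1.95 times for Smarca2. Among the other members it ran from 1.22 times for Arid2 to 1.59 times for Arid1b and Smarcc1.

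Of 23 gene symbols listed for further BAF subunits, which include alternative symbols of the same gene, 18 were in the table. Of those, 16 were expressed highly enough to be tested. Of these 0 rose and 0 fell by limma, and 0 had an unadjusted p under 0.05, with 7 differences negative, 9 positive and a median of 0.04. The smallest p-values belonged to Gltscr1, which encodes a subunit of the non-canonical complex, at -0.25 (SE 0.16), and to Bcl7a at 0.20 (SE 0.14). They were followed by Ss18l1 at 0.25 (SE 0.18) and Bcl7b at 0.14 (SE 0.14), with limma adjusted p-values of 0.61, 0.643, 0.65 and 0.756 for the 4. Bcl7a and Ss18l1 were higher in all 3 knockout libraries than in any wild type library, 2 of 16 against 7.09% of all genes. Actb, whose product sits in the complex as well as in the cytoskeleton, varied most, from 342 to 2161 FPKM.

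**Figure D4:**
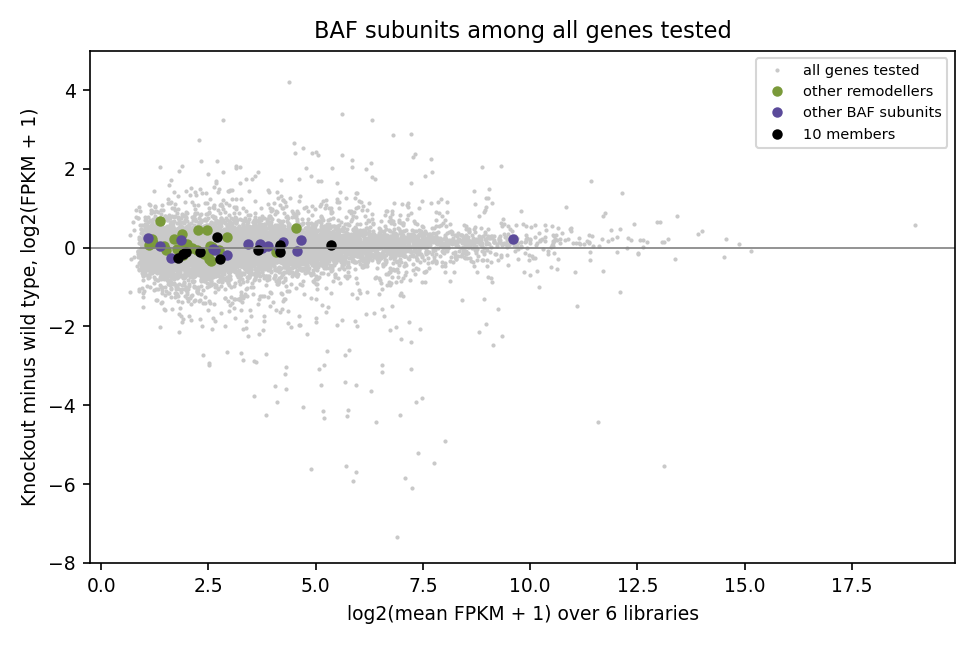
Knockout minus wild type on the log2(FPKM + 1) scale (y axis) against log2 of the mean FPKM + 1 over the 6 libraries (x axis) for all 11839 genes tested (grey), with the 10 members (black), 16 other BAF subunits (purple) and 26 other remodellers (green). The members lie between -0.29 and 0.26, inside the grey band at their level.

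Hepatocyte transcripts were high in every library, with Alb between 26589 and 34012 FPKM. The summed level of 8 hepatocyte markers, most of it Alb, was 45216 to 47548 FPKM in WT_DDC and 45814 to 56716 FPKM in Arid1a_KO_DDC. Of these 8, 0 passed by limma, with 3 differences negative and 5 positive. Cyp3a11 had groups apart with the knockout lower, where 9.56% of all genes did, and Ttr with the knockout higher, where 7.09% did. Of 8 macrophage markers tested, 0 passed by limma, 7 had a negative difference and 4 had groups apart with the knockout lower. Over all genes tested, 0.49% passed in either direction, 49.4% had a negative difference and 9.56% had groups apart with the knockout lower. The summed level of these 8 macrophage markers was 714 to 970 FPKM in WT_DDC and 460 to 689 FPKM in Arid1a_KO_DDC, without overlap, and none of the 8 was at 0. That of 7 of 8 T and NK cell markers was 14.6 to 22.8 and 2.99 to 13.1 FPKM, with Trac at 0 in Arid1a_KO_DDC replicate 3. The summed level of 8 proliferation markers was 45.5 to 75.0 FPKM in WT_DDC and 81.2 to 126 FPKM in Arid1a_KO_DDC. Of these 8, 0 passed by limma and 7 had a positive difference. Only 1, Tyms, had groups apart with the knockout higher, where 7.09% of all genes did. Mki67, Top2a, Ccnb1 and Cdk1 were among those whose groups overlapped. Among 8 biliary markers, 3 fell by limma: Cldn4 by 1.42 log2 units (adjusted p = 0.0386), Ddr1 by 1.66 (adjusted p = 0.0317) and Krt23 by 1.99 (adjusted p = 0.0447). In all, 5 of the 8 had groups apart with the knockout lower and 7 had a negative difference, and the median was -0.94. Their summed level, 139 to 408 FPKM in WT_DDC and 211 to 423 FPKM in Arid1a_KO_DDC, overlapped because Spp1 alone held 108 to 406 FPKM. Sums of B and plasma cell, stellate and sinusoidal endothelial markers overlapped between the genotypes, and 0 markers of any other list passed. By gene, the difference was negative for 5 of 5 B and plasma cell markers tested, with a median of -1.26. Yet for each of these 5, Arid1a_KO_DDC replicate 2 was the highest of the 6 libraries. Igkc was at 7538 FPKM there, against 17.6 and 22.5 FPKM in knockout replicates 1 and 3 and 1478 to 5412 FPKM in WT_DDC. The difference was negative for 6 of 8 stellate markers (median -0.48) and 8 of 8 sinusoidal endothelial markers (median -0.40). Groups were apart with the knockout lower for 0, 3 and 1 markers of these lists. For T and NK cell markers, 5 of 5 tested were negative and 1, Trac, had groups apart. Cd3e and Cd8a, too low to be tested, also had knockout values wholly below wild type. The part of these cell types in the levels of Arid1a, Arid1b and Pbrm1 was not tested.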

How the data were processed

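A single table was deposited by the authors, with log2 FPKM of 14499 genes in 6 libraries. The submitters' processing notes name TopHat2 2.0.6, Cufflinks, mm10 and GRCm38; which annotation was used is not given in the sources used here. Its lowest value, -10, is an FPKM of 0 plus an offset of 0.000977, which was subtracted to recover FPKM. Depth per library is unknown, so no counting intervals are given; 11280 to 11712 genes per library had at least 1 FPKM.

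Genes with at least 1 FPKM in at least 3 libraries, whatever their group, were fitted on log2(FPKM + 1) with limma 3.58.1 in R 4.3.3 (trend, two-sided, Benjamini-Hochberg). The fit was tested on simulated data, where it recovered 49 of 100 genes changed by 1 log2 unit and 97 of 100 changed by 2. Of 152 calls there, 6 were false. Differences as small as those of the members were not simulated. Recovery was not split by transcript level, so it gives no measure of power for the lowest members, Arid1b, Pbrm1 and Arid2. Ratios were compared with exact permutation tests in scipy 1.17.1. Sample titles gave each library's group and number. The members and lists were chosen with earlier results of these data known. Named were all members, the 4 other BAF subunits and the 3 other remodellers with the smallest p, and the 3 genes most like Arid1a; Actb and Srcap were chosen after their values were seen. Alternatives were another pseudocount, filter, scaling or variance setting, a replicate block, a library number term or subset, and leaving out each library. Positions are from GENCODE M21 on GRCm38 and promoter sequences from RefSeq on GRCm38.p6.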

Additional observations from a re-analysis of the deposited data

How the results depend on the processing

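Across 11 alternative settings and 6 fits that each left out 1 library, limma called 0 of the 10 members for genotype. It also called 0 for the library number set under 11 alternatives and 0 for the interaction under 2. The median difference over the members, -0.10, was -0.0586 with a pseudocount of 5, -0.0533 with quantile normalization, -0.0706 in L0602 to L0605 alone and -0.000613 with a filter at 5 FPKM, which drops 4 members. With 1 library left out it was -0.123 to -0.0553. Arid1a, Arid1b, Arid2, Smarcc1, Smarcc2 and Pbrm1 kept their sign in every fit that tested them, with Arid1a at -0.455 to -0.123. With 1 library left out, Smarca2 ran from -0.188 to 0.281, Smarca4 from -0.145 to 0.0349, Smarcb1 from -0.0609 to 0.171 and Smarcd1 from -0.196 to 0.0051. In L0602 to L0605 alone, Smarcb1 was at -0.036 and Smarcd1 at 0.0392. The Arid1a/Arid1b log2 ratio, at 0.02, was -0.0264 with FPKM + 1 and -0.178 in L0602 to L0605 alone, and ran from -0.193 to 0.253 with 1 library left out. The Smarca4/Smarca2 ratio ran from -0.249 to 0.0352 in the same way. The causes were not tested.

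The order of the 10 levels was the same with quantile normalization. The replicate block, which leaves fewer degrees of freedom, gave the same Arid1a difference, -0.29, and 0 called members; over all genes limma called 0 with it, in place of 58. Deviations from the group means correlated at 0.346, 0.133 and 0.0212 for replicate numbers 1, 2 and 3. Between libraries of unlike number they ran from -0.307 to 0.26, so the numbers were not taken to pair the libraries. Over all genes the calls were 16 higher and 42 lower, 33 and 59 with the library number term, 5 and 7 with no filter, and 0 to 30 and 0 to 40 with 1 library left out.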

Other observations

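Among other ATP-dependent remodellers, 0 passed by limma. Of 30 listed, 28 were in the table and 26 were tested, with 14 differences positive, 12 negative and a median of 0.02. Cecr2, which encodes a bromodomain partner of the ISWI ATPases, averaged 1.0025 ± 0.0591 FPKM in WT_DDC and 2.19 ± 0.265 FPKM in Arid1a_KO_DDC (SD, n = 3). Its log2 difference was 0.67 (SE 0.15, limma adjusted p = 0.145). Smarcal1, an annealing helicase at stalled replication forks, was at 0.46 (SE 0.18, limma adjusted p = 0.426) and Rad54l2 at 0.35 (SE 0.19, limma adjusted p = 0.559). These 3 genes and Srcap had knockout values wholly above wild type, 4 of 26, where 7.09% of all genes did, and 0 of 26 had them wholly below. Of the 26, 2, Cecr2 and Smarcal1, had an unadjusted p under 0.05, against 11.1% of all genes.

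Over the 6 libraries, the genes whose log2(FPKM + 1) followed Arid1a most closely among 6987 compared were Adgre1, Snx2 and Snrpb, each with a Pearson r of 0.99. With so many genes and 6 libraries that share the genotype and library number splits, this is a description only. Adgre1, which encodes the macrophage surface protein F4/80, was at 12.5, 7.48 and 8.10 FPKM in wild type and at 8.88, 6.59 and 4.27 FPKM in knockout libraries, and the 6 libraries fell in the same order as for Arid1a. Among the members, Pbrm1 had the highest r with Arid1a, 0.85, and Smarca2 the lowest, -0.76.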
